A study of Mus musculus with 8 samples.

Results

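A set of interferon-responsive and antigen presentation genes was followed through a Rif1 knockdown in mouse embryonic stem cells: B2m, Gbp2, Cxcl10, Ifit2, Irf1, Ifitm1, Ifitm2, Ifitm3 and Oas1a. They were taken at every probe set of the array that carries one of these symbols alone, which gave 11 probe sets for 9 genes, of 45037 probe sets other than controls and 18193 genes with a probe set of their own. All 11 passed the filter on dim probe sets, and none of them passed it only through the group in which it was high. A probe set is a group of short probes for one transcript, and its deposited value is a linear intensity signal.

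The study used 8 Affymetrix arrays, 2 in each of 4 groups, to ask what Rif1 does in these cells. Rif1 encodes a nuclear protein known for its work at telomeres, DNA breaks and replication origins. J1 cells, of strain 129S4/SvJae, were lipofected with a short hairpin RNA (shRNA), either a control or the Rif1 one, and were collected 48 h later. F1 cells, of background C57BL/6xC3H, carried a stable control or Rif1 shRNA and were collected at passage 16. All 4 groups were grown on feeder plates, so feeder cells may be in the RNA. The F1 control arrays carry the control shRNA as their transfection label but the stable knockdown line as their cell line label. The labels do not say how many F1 clones there were, nor whether both arrays of a group come from cultures of their own. The p-values therefore cover the spread between arrays alone, and that spread could be technical. Line, strain, mode of knockdown and duration all differ between J1 and F1 and cannot be told apart.

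Interferons signal through paired receptor chains and JAK kinases to STAT transcription factors, which bind short promoter elements and switch on genes that block viruses, attract immune cells and load peptides onto MHC class I. One such element is the interferon-stimulated response element (ISRE), bound by STAT and IRF proteins after type I interferon, and another is the gamma-activated site (GAS), bound by STAT dimers. Embryonic stem cells are known for a weak interferon response, for low MHC class I and for a high steady level of some Ifitm genes without interferon.

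The promoter windows of the genes, from 250 bases before to 50 bases after the RefSeq start (build GRCm38.p6), are shown first because genes that moved in opposite directions held the same letters there. The search was for the ISRE-like letters GAAANNGAAA and the GAS-like letters TTCNNNGAA on both strands, and matches of the 2 motifs may overlap. The ISRE-like letters stood in the windows of 6 of the 9 genes, against 3.99% of 27025 genes with a window. These 6 were B2m, Gbp2 and Cxcl10, which rose in F1, and Ifitm2, Ifitm3 and Oas1a, which fell. The GAS-like letters stood in the windows of Ifit2, Irf1, Ifitm3 and Oas1a, 4 of 9, against 9.55% of all genes. The 9 genes were chosen as interferon-responsive, so a share above that of all genes is no finding for either motif. Of the other pathway genes described below, 21.4% of 14 that rose in F1 held the ISRE-like letters. Of 53 that did not pass, 28.3% held them. Stretches around the ISRE-like match are printed from 5′ to 3′ on the strand of the gene, with the matched letters in capitals. The last is the GAS-like match of Irf1, shown because Irf1 is the gene that did not pass in either line. In Gbp2 the match is on the opposite strand. In Ifitm3 both matches lie just past the start, and in Oas1a 2 matches overlap.
B2m, chr2:122147503-122147602, plus strand: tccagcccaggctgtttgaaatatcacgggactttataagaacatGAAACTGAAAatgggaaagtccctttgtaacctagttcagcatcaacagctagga
Gbp2, chr3:142620559-142620658, plus strand: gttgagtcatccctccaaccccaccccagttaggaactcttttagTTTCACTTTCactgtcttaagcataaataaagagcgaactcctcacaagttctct
Cxcl10, chr5:92349048-92349139, minus strand: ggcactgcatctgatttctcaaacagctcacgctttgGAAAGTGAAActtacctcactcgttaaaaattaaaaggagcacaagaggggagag
Ifitm2, chr7:140955962-140956052, minus strand: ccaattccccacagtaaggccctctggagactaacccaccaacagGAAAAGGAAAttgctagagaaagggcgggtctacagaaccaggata
Ifitm3, chr7:141010714-141010743, minus strand: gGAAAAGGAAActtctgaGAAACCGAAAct
Oas1a, chr5:120907526-120907590, minus strand: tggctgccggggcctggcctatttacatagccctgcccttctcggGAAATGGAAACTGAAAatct
Irf1, chr11:53769879-53769977, plus strand: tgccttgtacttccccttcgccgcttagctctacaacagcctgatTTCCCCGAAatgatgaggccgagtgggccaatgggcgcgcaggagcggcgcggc

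Counted from the RefSeq start, the first base of the match lay at -139 in B2m, -59 in Gbp2, -213 in Cxcl10 and -46 in Ifitm2. In Oas1a the first bases lay at -20 and -14, and in Ifitm3 at 3 and 20. The B2m match and the second Oas1a match have the same letters, GAAACTGAAA, in a gene that rose and a gene that fell. The first Ifitm3 match shares its letters, GAAAAGGAAA, with the match of Ifitm2. No match to either motif was found in the window of Ifitm1, which says only that these letters are not in that stretch. A match describes the sequence and does not show that a factor binds there.

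The targeted gene was lower in both lines. The brightest Rif1 probe set (1429491_s_at) read 2614.1 and 3221.6 on the J1 control arrays against 1259.8 and 1296.6 after the knockdown, a log2 fold change of -1.08 (limma, adjusted p = 7.31e-05). In F1 it read 4230.6 and 4247.2 against 1338.8 and 1407, a log2 fold change of -1.74 (adjusted p = 3.77e-07), and all 4 Rif1 probe sets passed as lower in both lines. Array medians were 61.1 to 69.4, while the trimmed mean was 193 to 197 in J1 and 301 to 309 in F1, so fold changes are given on a quantile-normalized log2(signal + 17.8) scale, which shrinks the change of dim genes. The 10 stem cell markers tested, Pou5f1, Nanog and Sox2 among them, summed to 50793 to 61675 over the 8 arrays. Single markers differed more than this sum: on the J1 and F1 controls Zfp42 averaged 7785 and 1315, and Utf1 714.5 and 3617. With 2 arrays a group, precision is limited throughout.

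In F1, 4 of the 9 genes rose and 4 fell, and antiviral genes were on both sides. The class I light chain B2m, the GTPase Gbp2, the chemokine Cxcl10 and the antiviral effector Ifit2 rose, by log2 fold changes of 0.46 to 1.20. The 3 Ifitm genes and Oas1a fell, by log2 fold changes of -0.48 to -0.68. The transcription factor Irf1 did not pass. In all, 6 probe sets of 4 genes passed as higher and 4 probe sets of 4 genes as lower at an adjusted p under 0.05, where 15.0% of all probe sets tested passed in F1, 8.26% higher and 6.78% lower. In J1 none of the 11 passed, where 3.18% of all probe sets did, 1.44% higher and 1.74% lower. At an unadjusted p under 0.05, 2 of the 11 passed in J1, Cxcl10 and Ifitm1, against 17.1% of all probe sets.

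**Figure D1:**
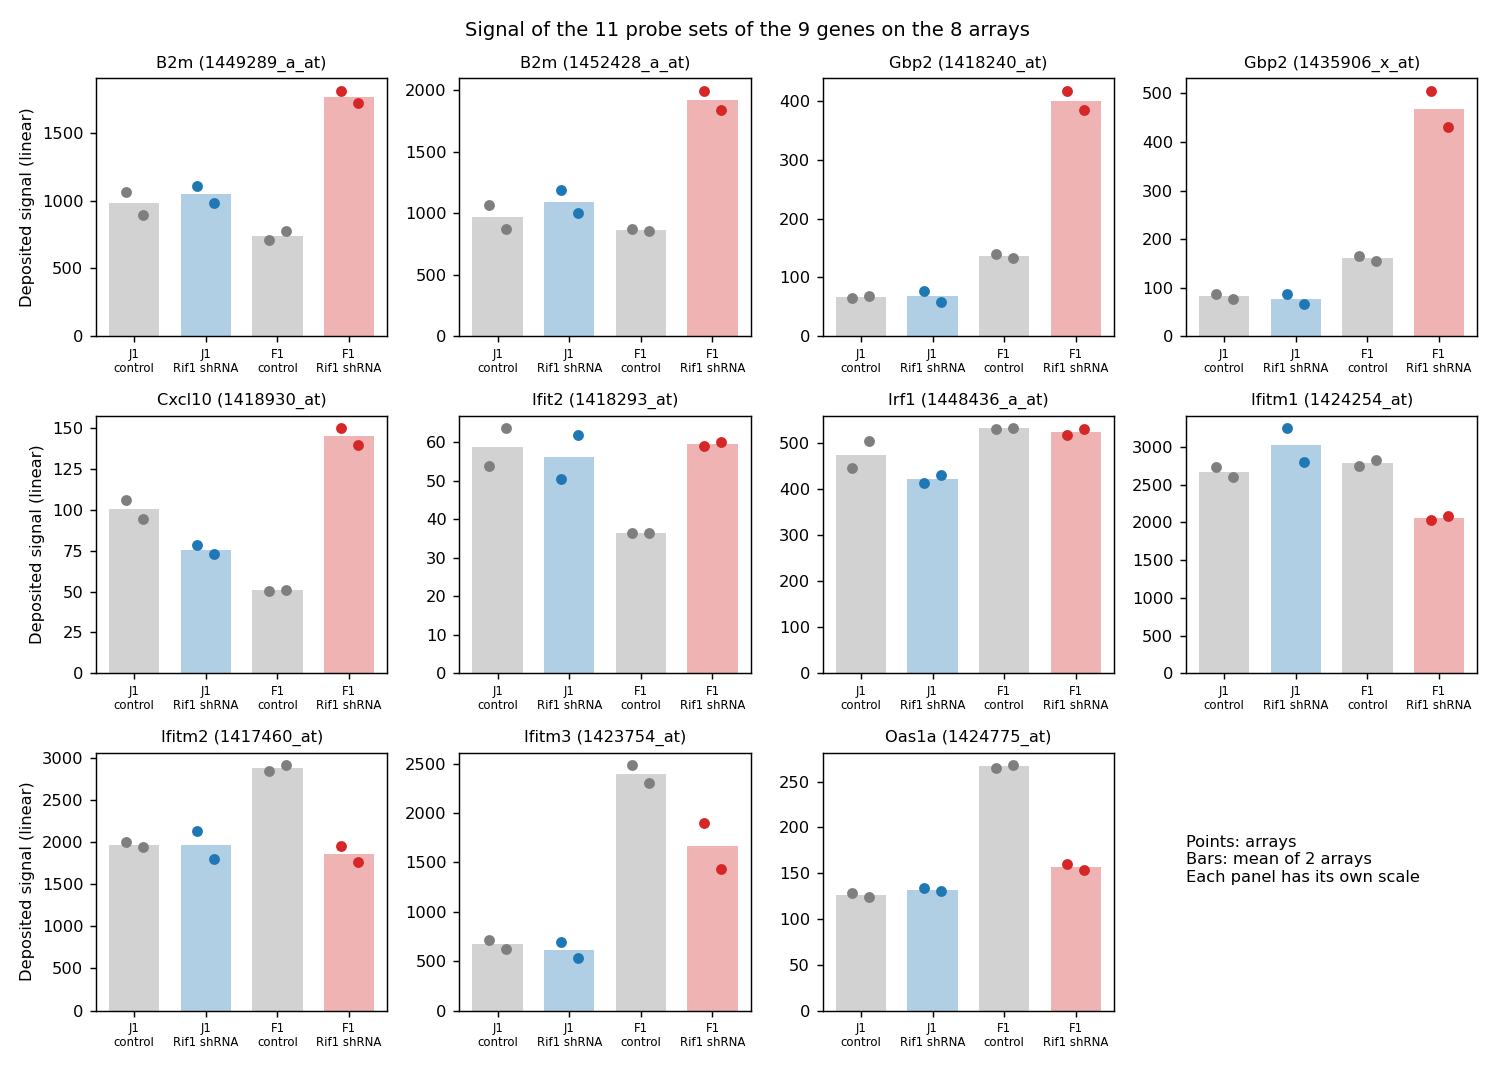
Deposited linear signal of each of the 11 probe sets (vertical axis, own scale per panel, starting at 0) in the 4 groups. Points are arrays and bars are means of 2 arrays. In F1 the red points of B2m, Gbp2, Cxcl10 and Ifit2 lie above the grey control points, those of Ifitm1, Ifitm2, Ifitm3 and Oas1a lie below them, and those of Irf1 lie just below.

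B2m (NCBI gene 12010, chromosome 2) encodes beta-2 microglobulin, the invariant light chain without which class I molecules do not reach the cell surface. Its probe set 1449289_a_at read 706.9 and 773.9 on the F1 control arrays and 1809.7 and 1721 on the F1 Rif1 shRNA arrays. In J1 it read 1065.1 and 893.2 against 1106.2 and 985. The F1 knockdown arrays stood well above the F1 controls, and the J1 groups overlapped. The log2 fold change was 1.19 in F1 (SE 0.0912, adjusted p = 9.83e-06) and 0.11 in J1 (95% interval -0.09 to 0.31, adjusted p = 0.585). The second probe set, 1452428_a_at, read 869 and 855.3 against 1994.8 and 1841.6 in F1, a log2 fold change of 1.10 (SE 0.102, adjusted p = 3.91e-05). The F1 effect exceeded the J1 effect by 1.08 at the first probe set (adjusted p = 0.000578) and by 0.91 at the second (adjusted p = 0.00321). Over all genes described here, 8 of the 11 probe sets passed in this difference, 5 higher and 3 lower, where 8.33% of all probe sets did, 4.98% higher and 3.35% lower.

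Gbp2 (NCBI gene 14469, chromosome 3) encodes a guanylate-binding protein, an interferon-induced GTPase that attacks the vacuoles of intracellular pathogens. Its probe set 1418240_at read 140.2 and 133 on the F1 controls and 417.2 and 383.6 on the F1 knockdown arrays, without overlap. The probe set 1435906_x_at, whose suffix marks probes that may also bind related transcripts, read 166.2 and 155.4 against 505.6 and 429.9. Both gave nearly the same log2 fold change, 1.18 (SE 0.150, adjusted p = 0.000341) and 1.20 (SE 0.154, adjusted p = 0.000372). In J1 the first read 65.5 and 69 against 76.2 and 59.1, so that the knockdown arrays lay on either side of the controls. Its J1 log2 fold change was -0.04 (95% interval -0.37 to 0.29, adjusted p = 0.923), and that of the second was -0.14 (95% interval -0.48 to 0.20, adjusted p = 0.706). The difference between the lines passed at both, at 1.22 (adjusted p = 0.00513) and 1.34 (adjusted p = 0.0036).

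Cxcl10 (NCBI gene 15945, chromosome 5) encodes a chemokine that draws activated T cells. It read 50.4 and 51.2 on the F1 controls and 149.9 and 139.4 after the knockdown. In J1 it read 105.8 and 94.4 on the controls and 78.2 and 72.7 after the knockdown. The groups did not overlap in either line, and the values lay in opposite directions. The log2 fold change was 1.04 in F1 (SE 0.116, adjusted p = 0.000142) and -0.47 in J1 (SE 0.116, adjusted p = 0.0573), so the J1 value missed the threshold. Over 20 alternative settings the J1 value ran from -0.60, without J1 Rif1 shRNA replicate 1, to -0.32, and it did not pass under 18 of them. The lines differed by 1.51 (adjusted p = 0.000325), the largest difference among the 11 probe sets.

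Ifit2 (NCBI gene 15958, chromosome 19) encodes an RNA-binding tetratricopeptide repeat protein that restrains translation in infected cells. It was dim. It read 36.4 and 36.4 on the F1 controls and 59.1 and 59.9 after the knockdown, and 53.8 and 63.7 against 50.5 and 61.9 in J1. The F1 groups stood apart and the J1 groups overlapped. The F1 controls lay at 31.7% to 32.1% in the ranking of signals on their arrays, below the filter at 40%, and the other 6 arrays lay above it. The log2 fold change was 0.46 in F1 (SE 0.127, adjusted p = 0.0327), and it was no longer past the threshold when any 1 of the 4 F1 arrays was left out (adjusted p = 0.151 to 0.165). In J1 it was -0.11 (95% interval -0.39 to 0.17, adjusted p = 0.717), and the difference between the lines, 0.57, did not pass (adjusted p = 0.0808).

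Irf1 (NCBI gene 16362, chromosome 11) encodes a transcription factor that is itself induced by interferon gamma and that drives class I and Gbp genes. It read 530 and 532 on the F1 controls and 517.3 and 529.6 after the knockdown, and 444.6 and 502.7 against 411.5 and 430.8 in J1. In both lines the knockdown arrays lay just below the controls. The log2 fold change was -0.07 in F1 (95% interval -0.25 to 0.10, adjusted p = 0.629) and -0.13 in J1 (95% interval -0.31 to 0.04, adjusted p = 0.438). The difference between the lines was 0.06 (adjusted p = 0.815).

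Ifitm1, Ifitm2 and Ifitm3 (NCBI genes 68713, 80876 and 66141) encode small membrane proteins that hinder the fusion of viruses with cell membranes. They lie next to each other on chromosome 7, with 0 protein-coding genes between neighbours. Ifitm1 read 2752.5 and 2828.3 on the F1 controls and 2035.2 and 2088.2 after the knockdown. Ifitm2 read 2846.4 and 2912.8 against 1956.7 and 1756.6, and Ifitm3 read 2487.4 and 2306.5 against 1897.4 and 1438.6. At each gene both F1 knockdown arrays lay below both controls, with the widest gap between replicates at Ifitm3. The F1 log2 fold changes were -0.48 for Ifitm1 (SE 0.0681, adjusted p = 0.000793), -0.68 for Ifitm2 (SE 0.0727, adjusted p = 0.000101) and -0.57 for Ifitm3 (SE 0.141, adjusted p = 0.0194). The call on Ifitm3 was lost without F1 control replicate 1 (adjusted p = 0.122), without F1 control replicate 2 (0.0738) and without F1 Rif1 shRNA replicate 2 (0.184), and also without the intensity trend of the fit (0.0621).

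In J1 none of these 3 neighbours passed. Ifitm1 read 2734.6 and 2604.3 on the controls and 3250.9 and 2792.3 after the knockdown, with no overlap and a log2 fold change of 0.17 (adjusted p = 0.219). Over 20 alternative settings this value ran from 0.07 to 0.28, the latter without J1 Rif1 shRNA replicate 2, and it did not pass under 19 of them. The J1 arrays overlapped at the other two: Ifitm2 read 1994.4 and 1943.7 against 2124.3 and 1801.2 (log2 fold change -0.01, 95% interval -0.17 to 0.15), and Ifitm3 read 717.6 and 623.7 against 698.8 and 532.4 (log2 fold change -0.10, 95% interval -0.41 to 0.21). The F1 effect was below the J1 effect by a log2 difference of -0.65 at Ifitm1 (adjusted p = 0.00209) and -0.67 at Ifitm2 (adjusted p = 0.0026). At Ifitm3 the difference of -0.46 did not pass (adjusted p = 0.198).

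Oas1a (NCBI gene 246730, chromosome 5) encodes an oligoadenylate synthetase, which senses double-stranded RNA and makes the messenger that activates RNase L. It read 265.2 and 268.1 on the F1 controls and 159.6 and 153.2 after the knockdown, a tight pair of values in each group. The J1 values were 128.2 and 124.2 on the controls and 134 and 130.2 after the knockdown. The deposited J1 knockdown signals lay just above the controls, and the groups overlapped after normalization. The log2 fold change was -0.64 in F1 (SE 0.0993, adjusted p = 0.0013) and 0.03 in J1 (95% interval -0.19 to 0.25, adjusted p = 0.925). The difference between the lines, -0.67, passed (adjusted p = 0.0137), but not when any 1 of the 4 F1 arrays was left out (adjusted p = 0.0672 to 0.093) or with replicate number as a block (0.0613).

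**Figure D2:**
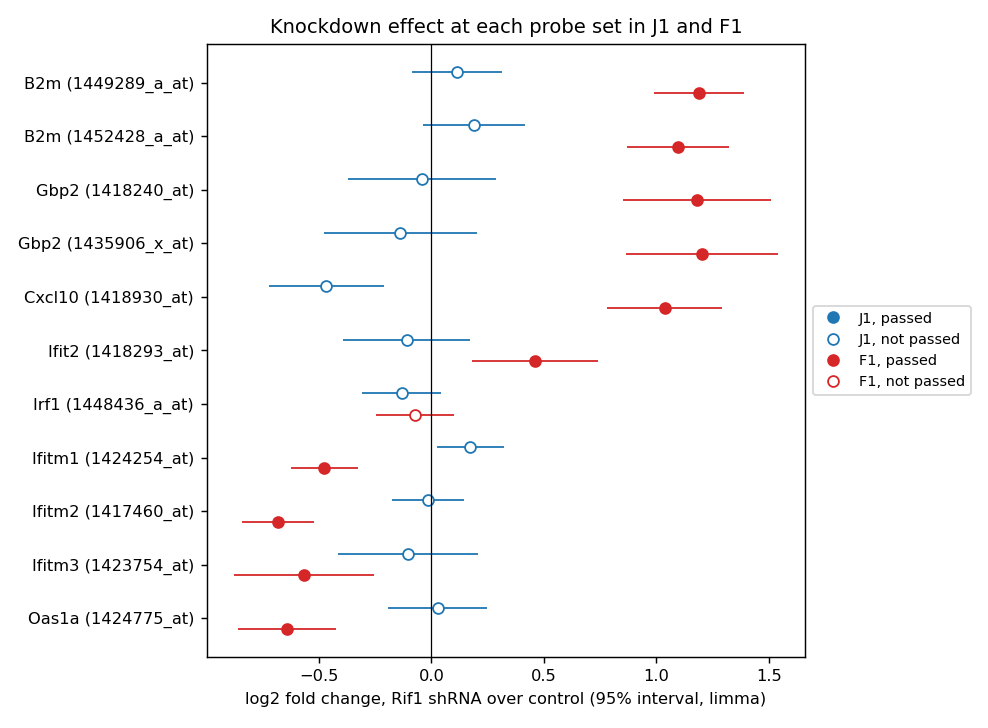
Log2 fold change of Rif1 shRNA over control (horizontal axis) with its 95% interval from limma at each probe set, in J1 (blue) and F1 (red). Filled symbols passed at an adjusted p under 0.05. The F1 values run from -0.68 at Ifitm2 to 1.20 at Gbp2, and no J1 symbol is filled.

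The arrays of the 2 F1 groups did not overlap at any of the 11 probe sets, where 63.9% of all probe sets did not, 28.4% higher and 35.5% lower. Of the 11, 6 lay higher and 5, Irf1 included, lower. In J1 they did not overlap at 3 of 11 (Cxcl10 and Irf1 lower, Ifitm1 higher), where 39.7% of all probe sets did not. The smaller residual spread of F1 goes with this: the median residual SD was 0.0659 on F1 arrays and 0.115 on J1 arrays on the log2 scale. The fit shared 1 spread over all 8 arrays, so each probe set has the same SE in both lines. The printed intervals and p-values therefore do not reflect the wider spread of J1 or the narrower one of F1. With only the 4 arrays of the line, 0.804% of all probe sets passed in J1 and 25.8% in F1, beside 3.18% and 15.0% in the shared fit. In F1, B2m, Gbp2, Cxcl10, Ifitm1, Ifitm2 and Oas1a passed with the same sign under all 20 alternatives run, which leaves Ifit2 and Ifitm3 as the genes whose F1 call was lost under some.

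**Figure D3:**
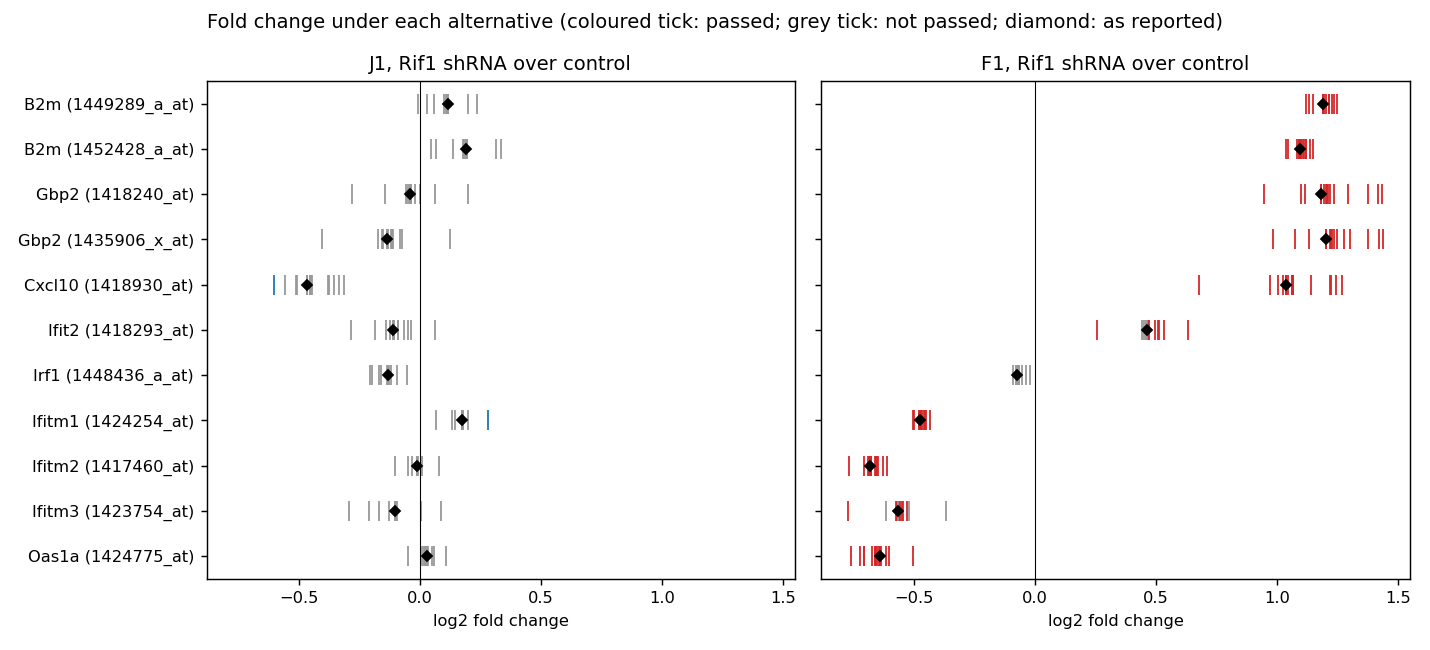
Log2 fold change of each probe set (horizontal axis) under each alternative setting, including every array left out in turn, for J1 and F1. Coloured ticks passed, grey ticks did not, and the black diamond is the reported value. In F1, grey ticks appear at Ifit2, Ifitm3 and Irf1, and in J1 coloured ticks appear at Cxcl10 and Ifitm1.

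The genes also differed between the control arrays of the lines, given here as a description with no test. On both the normalized and the deposited log2 scale the F1 controls lay below the J1 controls without overlap at B2m, Cxcl10 and Ifit2, and above them at Gbp2, Ifitm3 and Oas1a. The size depended on the scale: the log2 difference of F1 minus J1 controls at Ifitm3 was 1.03 normalized and 1.81 as deposited, and at the B2m probe sets it was -1.16 and -0.93 normalized and -0.39 and -0.16 as deposited. At Irf1, Ifitm1 and Ifitm2 the sign of this difference turned between the scales, so no order of the lines is given. At B2m the F1 controls were lowest on both scales. The F1 knockdown overlapped the J1 groups after normalization and lay above all J1 arrays as deposited (1721 to 1809.7 against 893.2 to 1106.2 at the first probe set), so its place relative to J1 rests on the scaling. The next 4 orders held on both scales. At Gbp2 the J1 groups overlapped and lay below the F1 controls, which lay below the F1 knockdown. At Cxcl10 the F1 controls were lowest, then the J1 knockdown, the J1 controls and the F1 knockdown, with no overlap between neighbours. At Ifit2 the F1 controls were lowest, and the spread of the J1 controls covered that of the F1 knockdown. At Ifitm3 the J1 groups overlapped at the bottom, the F1 knockdown came next and the F1 controls were at the top. At Oas1a the F1 controls were highest on both scales, but the F1 knockdown lay below all J1 arrays after normalization and above them as deposited (159.6 and 153.2 against 124.2 to 134), so no order is given for it.

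For each gene the other genes with the most similar profile over the 8 normalized arrays were named by Pearson r, as a description only, since the 8 arrays fall into 4 groups and share the difference between the lines. Cxcl10 was most like Dsp, a desmosome gene (r = 0.987), and Phlda3 (r = 0.984), with F1 log2 fold changes of 1.01 and 0.92. Oas1a was most like Dhodh, an enzyme of pyrimidine synthesis (r = 0.983), and Esrrb, a stem cell transcription factor (r = 0.981), with F1 log2 fold changes of -0.63 and -0.54. Ifitm1 was most like Aldh3b1 and Nupr1 (both r = 0.995), and Ifitm2 like Tmem223 (r = 0.995) and Ech1 (r = 0.993). Gbp2 was most like Sptlc2 (r = 0.997) and Mrpl16 (r = 0.994), and B2m like Mrps25 (r = 0.988) and Atp6v0e (r = 0.986). For Ifit2 these were Tbc1d32 (r = 0.976) and Dach2 (r = 0.963), for Irf1 Casp8ap2 (r = 0.997) and Psmd11 (r = 0.996), and for Ifitm3 Ivd (r = 0.981) and Tmem258 (r = 0.980). The 9 genes themselves were left out of this search, so it does not show how alike they are. None of these 18 is in the interferon lists described next, but those lists hold only 89 of the 14714 genes tested, so this count says little.

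The wider pathway was read from 10 lists of 119 genes, each gene at its brightest probe set, of which 89 could be tested. Of the 30 others, 19 were below the filter, 6 lay only on probe sets with several symbols, and 5 were not analysed here. In F1, 16 of the 89 passed as higher and 0 as lower, where 18.8% of all 14714 genes passed, 10.6% higher and 8.17% lower. The median log2 fold change was 0.11 over the 89 and -0.02 over all genes. In J1, 2 passed as higher and 0 as lower, where 4.03% of all genes passed, 1.86% higher and 2.17% lower, and the medians were 0.05 and 0.01. Of the 89 genes, 46 had several probe sets tested. Of the 16 that passed in F1, Cd274, Gbp3, Irgm1, Socs1, Lgals3bp, Ccl2, H2-M3 and Psmb10 had only 1 probe set tested. Among those with several, 3 had no other probe set that passed (Il10rb, Tapbp and Pdia3), and H2-D1 had some that did not. All tested probe sets of Ifngr2, Socs3, Cxcl1 and Calr passed. Another probe set passed as higher in 5 genes that did not pass at the brightest one (Jak2, Xaf1, Herc6, Gbp7 and Cxcl12), and as lower in 1 (Samhd1). Where single genes of the lists are named outside the rule of 2 per list and direction, they were chosen after their values were seen.

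**Figure D4:**
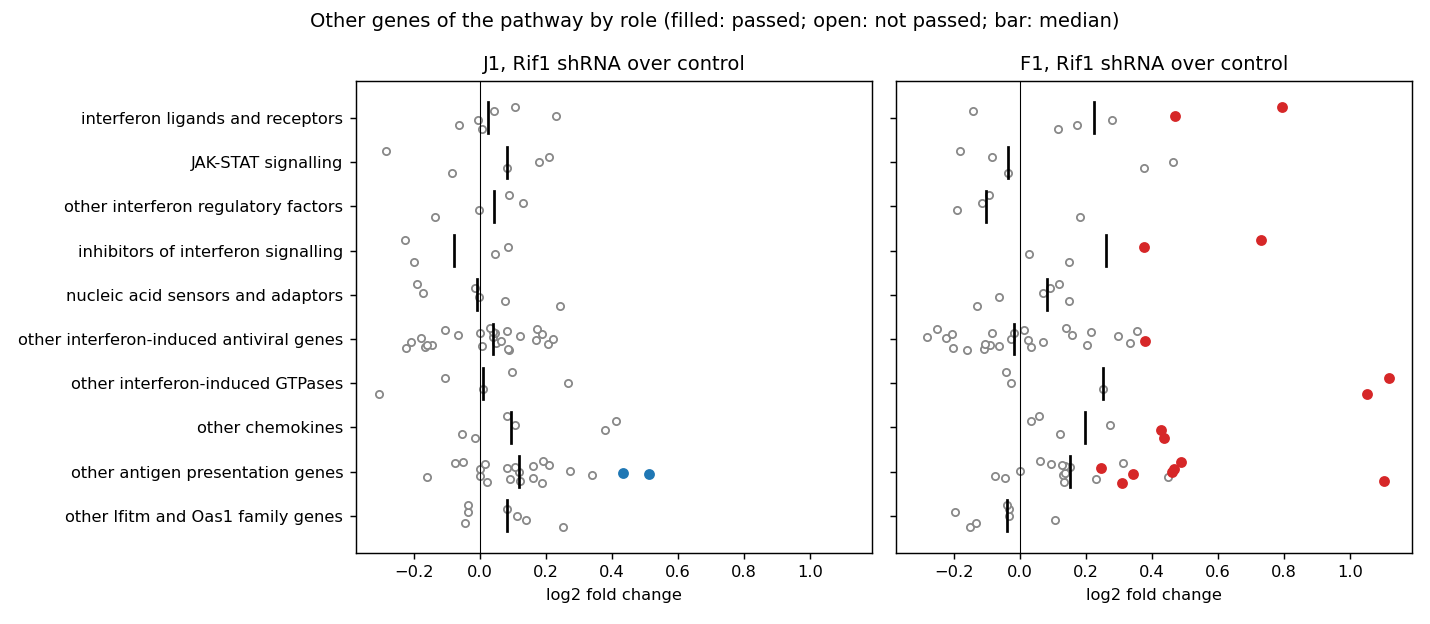
Log2 fold change (horizontal axis) of the 89 other genes of the pathway, by role, in J1 (left) and F1 (right). Each point is a gene at its brightest probe set, filled if it passed, and black bars are list medians. In F1 the filled points run from 0.25 to 1.12 and all lie to the right of 0.

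Among the genes of signalling, receptors and their inhibitors held the passing members. Over all genes tested, 10.6% rose in F1 and 8.17% fell. Of 6 ligand and receptor genes tested, 2 rose in F1: Il10rb, a chain shared by the receptors of interleukin 10 and interferon lambda (log2 fold change 0.79, adjusted p = 0.00345, but 0.0006 at its second probe set, adjusted p = 0.999), and Ifngr2, the signalling chain of the interferon gamma receptor (0.47, adjusted p = 0.0174). The pair lies close together on chromosome 16, with 1 protein-coding gene between them. The ligand genes Ifnb1 and Ifng were below the filter. At their brightest probe sets none of the 5 JAK-STAT genes passed in F1 (Jak2 0.46, adjusted p = 0.0736, and Jak1 0.37, adjusted p = 0.0869). The other Jak2 probe set (1421065_at) passed at 0.59 (adjusted p = 0.00288). The 4 other IRF genes did not pass, at -0.19 to 0.18. The inhibitors Socs3 and Socs1 rose, at 0.73 (adjusted p = 3.03e-05) and 0.38 (adjusted p = 0.0331), 2 of the 4 inhibitors tested. Of the 6 nucleic acid sensors and adaptors 0 passed, with a median of 0.08.

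Beside the counts of the next lists, 10.6% of all genes tested rose in F1 and 8.17% fell. Of 25 other interferon-induced antiviral genes, 1 passed in F1 at its brightest probe set, the secreted glycoprotein gene Lgals3bp (log2 fold change 0.38, adjusted p = 0.0451), and the list median was -0.02. Members that did not pass include Ifit3 (0.07), Oasl2 (0.30), Bst2 (-0.11) and Rsad2 (-0.02). Dimmer probe sets of 3 genes passed: 2 of the 3 of Herc6 (0.61, adjusted p = 0.00212, and 0.72, adjusted p = 0.00098) and 1 of Xaf1 (0.77, adjusted p = 0.00128) as higher, and 1 of Samhd1 (-0.34, adjusted p = 0.0280) as lower. Of 5 other interferon-induced GTPases, 2 rose about as far as Gbp2: Irgm1, an immunity-related GTPase of autophagy (1.12, adjusted p = 0.000266), and Gbp3 (1.05, adjusted p = 0.00049), which is separated from Gbp2 by 1 protein-coding gene on chromosome 3. A dimmer probe set of Gbp7 passed as well (0.45, adjusted p = 0.0196). The chemokines Ccl2 and Cxcl1 rose, at 0.44 (adjusted p = 0.0438) and 0.43 (adjusted p = 0.0475), 2 of 6 tested. The 2 dimmer Cxcl1 probe sets rose further, at 0.83 (adjusted p = 0.0056) and 0.65 (adjusted p = 0.00955). A second probe set of Cxcl12 also rose (0.41, adjusted p = 0.0428). The relatives of the falling genes did not pass: 0 of 7 other Ifitm and Oas1 genes did, at -0.20 to 0.11. They were dim, with F1 control means of 15.8 to 67.7, so a fall had little room to show. The F1 control means of the falling genes were 266.6 at Oas1a and 2397 to 2880 at the Ifitm genes.

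Of 21 antigen presentation genes tested, 7 rose in F1 and 0 fell, a share of 33.3%. Over all genes tested, 10.6% rose and 8.17% fell. Cd274, which encodes the checkpoint ligand PD-L1, rose by a log2 fold change of 1.10 (adjusted p = 0.000219), from 45.4 ± 7.84 (SD, n = 2) on the deposited scale to 139 ± 22.6. Tapbp, which encodes tapasin of the peptide-loading complex, rose by 0.49 (adjusted p = 0.00434), with 0.11 (adjusted p = 0.646) at its second probe set. The others were the loading chaperones Pdia3 (0.47, but -0.01 at a dimmer probe set) and Calr (0.31), the class I heavy chains H2-M3 (0.46) and H2-D1 (0.34), and the immunoproteasome subunit Psmb10 (0.25). The peptide transporter genes Tap1 and Tap2 did not pass (0.09 and 0.31), nor did the class I regulator Nlrc5 (0.00). In J1 the 2 genes that passed were the heavy chains H2-D1 (0.51, adjusted p = 0.0156) and H2-K1 (0.43, adjusted p = 0.0487). The brightest probe sets of both have the suffix for probes that may bind related transcripts. In J1, 2 of the 8 H2-D1 probe sets and 3 of the 4 H2-K1 probe sets passed as higher. The H2-D1 call in J1 was lost under 5 of 20 alternatives, among them only the 4 J1 arrays (adjusted p = 0.102) and J1 control replicate 1 left out. The H2-K1 call was lost under 16 of 20, among them 7 of the 8 single arrays left out.

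Of the 16 pathway genes that rose in F1, 7 passed under all alternatives run: Cd274, Irgm1, Gbp3, Il10rb, Socs3, Pdia3 and Calr. The second probe sets of Il10rb and Pdia3 did not pass, as given above. Tapbp was lost only without F1 Rif1 shRNA replicate 1 (adjusted p = 0.0791). The count of 16 fell to 7 to 9 when 1 of the 4 F1 arrays was left out, and to 8 with replicate number as a block. Over all probe sets the share that passed in F1 also fell, from 15.0% to between 5.9% and 8.36% without 1 F1 array and to 11.6% with the block. H2-D1, H2-M3, Ifngr2, Lgals3bp, Psmb10, Socs1 and Ccl2 were lost without any 1 of the F1 arrays, with an adjusted p of up to 0.241, 0.203, 0.154, 0.296, 0.237, 0.258 and 0.375. Cxcl1, at its brightest probe set, was lost without either F1 control or F1 Rif1 shRNA replicate 1. Its log2 fold change was 0.25 to 0.57 over the arrays left out. The ISRE-like letters stood in the promoter windows of 3 of 14 of the risers that had one, 21.4%, and in 15 of 53 of the genes that did not pass, 28.3%.

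Markers of other cells moved with the F1 knockdown. Of 26 feeder fibroblast markers tested, 22 rose and 0 fell in F1, where 10.6% of all genes rose and 8.17% fell. Their median log2 fold change was 1.14. Their summed deposited signal was 22087 to 22155 on the controls and 42463 to 44540 on the knockdown arrays. The brightest were Lgals1, Vim, S100a6, Fn1 and Sparc. Their group means were 2215 to 4740 on the F1 controls, 3683 to 6897 on the F1 knockdown arrays and already 1202 to 4244 on the J1 controls. Of the 8 defining fibroblast markers 7 were tested and 5 rose (Col1a2, Col3a1, Postn, Dcn and Thy1), while Col1a1 and the brightest Pdgfrb probe set did not pass and Lum was below the filter. The other Pdgfrb probe set (1436970_a_at) rose from 26 and 24.4 to 83 and 91.7, a log2 fold change of 1.14 (adjusted p = 0.000131). Of 8 trophoblast and epithelial markers, 6 rose and 1 fell (Tfap2c, -0.85), and their sum was 2424 to 2606 against 9844 to 10724. Most of that rise lay in Krt8 (F1 group means 515.3 and 4427) and Krt18 (479.7 and 4330). Cdx2 did not pass at its brightest probe set but rose at the other (1.07). The dimmer Hand1 probe set did not pass, and Gata3 and Elf5 were below the filter. The fibroblast and the trophoblast and epithelial sums moved in the same direction as B2m, Gbp2, Cxcl10 and Ifit2 and opposite to Ifitm1, Ifitm2, Ifitm3 and Oas1a. Their part in these results was not tested. In RNA of whole cultures a change in the number of cells of a type and a change in RNA per cell cannot be told apart. Leukocyte markers summed to 403 to 456 on the F1 controls and 419 to 435 on the knockdown arrays, 1 of 8 passed (Lyz2, 0.37), and the defining genes Ptprc and Itgam were below the filter. Of 10 stem cell markers, 1 rose and 5 fell in F1, with sums of 60050 to 61675 against 58413 to 60409. Of 8 endoderm markers, 1 rose (Pdgfra, also counted among the fibroblast markers) and 1 fell (Lama1).

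In J1, 0 of the same 26 fibroblast markers rose, 5 fell and 21 did not pass, with a median log2 fold change of -0.09. Over all genes tested, 1.86% rose in J1 and 2.17% fell. Of the 7 defining markers tested 0 passed there in either direction, and the sum was 16790 to 17793 on the controls and 15545 to 15624 after the knockdown. The ratio of 3′ to 5′ actin signal, a measure of RNA quality and labelling, was 2.61 to 2.71 on the J1 controls, 2.17 to 2.18 on the J1 knockdown arrays and 1.33 to 1.41 on the F1 arrays. It differed between the J1 groups beside the values of Cxcl10, Ifitm1, H2-D1 and H2-K1 there, and its part in them was not tested.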

How the data were processed

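Trizol-extracted total RNA was biotin-labelled for Affymetrix Mouse Genome 430 2.0 arrays, per the labels. The authors deposited linear intensity signals, made with MAS5 per the submitters' processing notes (version not given in the sources used here). There were 45101 probe sets, with a lowest value of 1 and 0 missing. One protocol label speaks of virus or siRNA, whereas the sample labels name shRNA.

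Control probe sets (64) were left out. All 8 arrays were quantile normalized on the log2(signal + 17.8) scale, the offset being the 10th percentile of the signals. A probe set was kept if at least 2 arrays had it above their 40th percentile, which left 31605. Group means were fitted with limma 3.58.1 in R 4.3.3 (intensity trend, 4 residual and 6.88 prior degrees of freedom), two-sided, with Benjamini-Hochberg adjustment over all 31605 and a threshold of 0.05. The fit was tested on simulated data. Matplotlib 3.10.9 under Python 3.11.15 drew the figures. Replicates of a group correlated at 0.991 to 0.997 and none were identical.

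Names came from the platform annotation: 34945 probe sets had 1 symbol and 932 several, and 34741 of the former matched RefSeq by gene ID, 0 with another symbol. All 11 probe sets and 9 promoters of the genes described matched. The genes, lists and tests were chosen with earlier results of these data known. Every probe set of the 9 genes was named, up to 2 pathway genes per list and direction, 2 genes of most similar profile for each, and Rif1. Alternatives were other offsets, filters, scalings, spreads and probe set rules, replicate blocks, and each array left out. Deviations of same-numbered replicates correlated at -0.34 in J1 and 0.19 in F1, so the numbers were not taken as pairs.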

Additional observations from a re-analysis of the deposited data

Results flagged for a closer look

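The F1 effect differed from the J1 effect, by limma's test of the difference itself, at 8 of the 11 probe sets of the 9 genes and at 6 other genes of the pathway. These were 6 of 89 genes, 6.74%, all higher, beside 6.24% of all 14714 genes higher, so the pathway count is close to that over all genes. As log2 differences of F1 minus J1, the values were 1.08 and 0.91 at the B2m probe sets, 1.22 and 1.34 at those of Gbp2, and 1.51 at Cxcl10, where the J1 value itself was below 0. They were -0.65 at Ifitm1, -0.67 at Ifitm2 and -0.67 at Oas1a. Among the other pathway genes, the GTPase genes differed by 1.36 at Gbp3 (adjusted p = 0.00197) and 1.22 at Irgm1 (adjusted p = 0.0030), and the signalling inhibitor Socs3 by 0.96 (adjusted p = 0.00016). The antigen presentation genes differed by 0.98 at Cd274 (adjusted p = 0.00819), 0.54 at Tapbp (adjusted p = 0.0273) and 0.46 at Pdia3 (adjusted p = 0.0140), but neither the second Tapbp nor the second Pdia3 probe set passed. In 6 genes that did not pass at the brightest probe set, another one passed as higher. They were Jak1 (1.17), Jak2 (0.71), Xaf1 (0.65), Herc6 (0.65), Gbp7 (0.61) and Cxcl1 (1.04 and 0.87). Over all probe sets, 4.98% passed as higher. At all of these the strain, the line, the mode of knockdown and its duration differ between J1 and F1 and cannot be told apart.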

How the results depend on the processing

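Over 20 alternatives, 5 to 6 probe sets of the 9 genes passed as higher and 3 to 4 as lower in F1. In J1, 1 passed as lower without J1 Rif1 shRNA replicate 1 and 1 as higher without replicate 2 (0 to 1 each over the arrays left out). J1 log2 fold changes changed sign at Gbp2 (1418240_at), 0.0005 as deposited. With 1 array left out they ranged from -0.0102 to 0.24 at B2m (1449289_a_at), -0.28 to 0.20 and -0.41 to 0.12 at the Gbp2 probe sets, -0.29 to 0.0596 at Ifit2, -0.10 to 0.0782 at Ifitm2, -0.29 to 0.086 at Ifitm3 and -0.0509 to 0.11 at Oas1a, and the difference between the lines at Irf1 from -0.0178 to 0.13. The 16 pathway genes higher in F1 became 26 on the values as deposited, 29 with only the 4 F1 arrays (then 1 lower) and 7 to 23 with 1 array left out, while the share of all probe sets went from 15.0% to 19.6%, to 25.8% and to between 5.9% and 19.9%. The 2 in J1 became 1 with the offset 4 times larger, no offset, no filter, the values as deposited or normalization within each line. They became 0 with median centring, only 4 arrays, no intensity trend or the mean of all probe sets, and 0 to 2 with 1 array left out (0 to 1 lower). With the replicate number as a block, the pathway count was 8 in F1 and 0 in J1, and the member counts in F1 stayed at 6 and 4. With the J1 numbers crossed, added after the data were seen, 1 member was lower in J1 (Cxcl10) and 3 pathway genes were higher. With 2 arrays per group, small changes of dim genes such as Ifit2 were at the limit of detection. The stricter filter left out Ifit2, Socs1 and Lgals3bp, and the difference between the lines has no value with the arrays of 1 line.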
